A study of Mus musculus with 4 samples.

Results

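SR splicing factors and heterogeneous nuclear ribonucleoproteins (hnRNPs) were followed in fetal mouse brain through every array probe whose gene name in the scanner files starts with Sfrs or Srsf and a number, or with Hnrnp or Hnrp. This took in 93 probes of 41 genes, out of 28146 gene names and 41174 probes. The brains came from C57BL/6J fetuses. Their dams went without food for the night of gestation day 17 (food deprivation, FD), or were given 50% of the control intake of chow over gestation days 10 to 17 (food restriction, FR), or ate freely (control). Fetuses of FR dams were collected on gestation day 18, and the day is not spelled out for FD. RNA of 5 fetuses was pooled for each group, and every treated pool was hybridised with control RNA on 2 arrays of 2 colours, with the dyes exchanged between them.

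Each condition was thus 1 pool, and the 2 arrays of a comparison are technical repeats of the same RNA. No test was possible, and an effect of the diet and variation between litters cannot be told apart. Whether FD and FR were compared with the same control RNA is not stated, and the control RNAs differed in their signal for skeletal muscle genes, as given below. A whole brain pool also cannot separate fewer cells of a type from less RNA per cell.

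SR proteins bind short sequences in exons through RNA recognition motifs and draw the splicing machinery to nearby splice sites through domains rich in arginine and serine, which kinases of the SRPK and CLK families phosphorylate. hnRNPs coat nascent transcripts and often act against SR proteins at the same exons. Many genes of both families are known to limit their own output by alternative splicing that yields transcripts for nonsense-mediated decay, so a single gene can give rise to several RNAs in developing brain.

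The rule on names also took in genes that are not SR proteins in the strict sense. Of the 41 names, 14 have another current symbol in the RefSeq gene table, and the current one is used here. Srsf8 in the files is Sfswap, Sfrs13a is Srsf10, Sfrs12 is Srek1, Sfrs16 is Clasrp, Sfrs2ip is Scaf11 and Sfrs18 is Pnisr. Of the genes, 11 were grouped as SR proteins, 9 as SR-related proteins, and 21 as hnRNPs or hnRNP-like. The genes lie on 18 chromosomes, 29 of them have 2 or more probes, and none has more than 4.

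The probes below belong to 5 genes whose probes moved apart within one gene in FR. Srsf10, Hnrnpul1 and Sfswap did so among spots without an outlier flag from the scanner software. Srsf6 and Srsf7 did so only with flagged spots kept, an alternative chosen after seeing the data. The probes are printed 5′ to 3′ as the scanner files give them, with the probe that was higher relative to control in FR first for each gene. Capitals mark the 20 bases shared by the Srsf7 probes that overlap.
Srsf6 A_52_P543824: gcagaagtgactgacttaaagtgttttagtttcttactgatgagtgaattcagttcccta
Srsf6 A_51_P185121: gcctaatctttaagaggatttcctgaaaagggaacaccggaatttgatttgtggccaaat
Srsf7 A_52_P649683: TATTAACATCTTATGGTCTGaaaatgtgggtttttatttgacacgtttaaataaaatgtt
Srsf7 A_52_P649685: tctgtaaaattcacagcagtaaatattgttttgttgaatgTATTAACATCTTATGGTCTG
Srsf7 A_51_P466673: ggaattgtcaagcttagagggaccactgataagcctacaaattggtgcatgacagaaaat
Srsf10 A_52_P372843: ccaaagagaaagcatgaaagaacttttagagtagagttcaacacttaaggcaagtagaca
Srsf10 A_51_P519592: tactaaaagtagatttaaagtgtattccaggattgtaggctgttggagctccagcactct
Hnrnpul1 A_52_P573366: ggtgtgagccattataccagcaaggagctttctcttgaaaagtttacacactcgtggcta
Hnrnpul1 A_52_P243307: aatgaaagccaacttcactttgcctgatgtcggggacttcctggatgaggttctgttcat
Sfswap A_51_P199624: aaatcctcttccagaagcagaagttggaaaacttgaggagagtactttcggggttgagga
Sfswap A_52_P396974: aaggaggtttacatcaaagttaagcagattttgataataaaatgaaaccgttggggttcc

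The array files place them on build mm9 and name no exon, intron or untranslated region for them. The Srsf6 probes lie on the plus strand at chr2:162762490-162762549 and chr2:162760575-162760634, so their starts are 1915 bases apart. The second Srsf6 probe lists no RefSeq transcript, and the first lists one. The Srsf7 probes lie on the minus strand at chr17:80600660-80600719, chr17:80600700-80600759 and chr17:80600305-80600364, and all 3 list the same RefSeq transcript. The Srsf10 probes lie on the plus strand at chr4:135414785-135414844 and chr4:135425311-135425370, 10526 bases apart, and the one that was higher in FR lists no RefSeq transcript. The Hnrnpul1 probes lie on the minus strand at chr7:26521707-26521766 and chr7:26511182-26511761, the second one spanning 580 bases of genome for a probe of 60 bases. The Sfswap probes lie on the plus strand at chr5:130056705-130060319 and chr5:130008857-130008916, 47848 bases apart, and the second lists no RefSeq transcript.

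Across the arrays, 43379 spots other than controls were read, and 71.4% to 85.3% of them stood well above background in a given channel. A probe counted as measured when its treated and control signals stood clear of background on each array of the comparison and neither spot had an outlier flag from the scanner software. From the spread between dye-swapped arrays, the technical SD of a probe's mean was 0.11 on the log2 scale for FD and for FR. It was taken over all measured probes, 25779 in FD and 25988 in FR, and is not given for the members alone. Single members can spread more. Neuronal marker genes were present, with 9 of 10 measured in FD and 8 of 10 in FR and median log2 ratios of -0.10 and -0.07. Skeletal muscle genes were lower in FD than in its control RNA, 9 of 10 measured by at least 1.5-fold with a median log2 ratio of -1.78, and 0 of 12 passed in FR. Their mean log2 signal was 7.40 in the FD pool and 8.90 in its control RNA, and 7.82 in the FR pool and 7.81 in its control RNA. Pituitary markers had a median of -0.67 in FD, with Gh and Pomc lower past 1.5-fold, and liver markers one of 0.60, with Ahsg higher. In FR the median was -0.29 for oligodendrocyte markers, with Olig1 lower, -0.28 for astrocyte markers, 0.38 for neutrophil markers, with S100a9 higher, and 0.34 for liver markers, with Afp higher. The part of these shifts in the splicing factor values was not tested.

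Member spots were bright. Of the 93 probes, 34 carried an outlier flag on at least 1 array, and their median log2 intensity was 12.41, against 9.37 for the unflagged probes. In FD 18 of the 93 were flagged and in FR 31, beside 10.4% and 13.6% of all bright probes. The part of brightness in the flags was not tested. This left 72 probes of 35 genes measured in FD and 59 probes of 31 genes in FR. Values of flagged spots are given below only where they are named as flagged. The members without a measured probe in FD were Hnrnpa2b1, Hnrnph2, Hnrnpm, Hnrnpul2, Hnrnpdl and Srsf9. In FR they were Hnrnph1, Hnrnph2, Hnrnph3, Hnrnpl, Hnrnpm, Hnrnpu, Hnrnpul2, Srsf12, Srsf7 and Srsf9. The only Hnrnpul2 probe was not well above background on any array. All other genes in these lists had bright probes with flagged spots.

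In FR brain, 3 member genes were higher than control and 1 was lower by at least 1.5-fold on both arrays, when each gene was read from its brightest measured probe. These 4 of 31 genes compare with 1.02% of all 18569 measured genes. The higher ones were Srsf6, an SR protein that binds exonic enhancers, Hnrnpdl, an hnRNP D-like protein that binds AU-rich RNA, and Hnrnpul1, a protein related to the scaffold factor hnRNP U. The lower one was Sfswap, the mouse relative of the Drosophila splicing regulator suppressor of white-apricot. By probe, 4 of 59 were higher, against 0.612% of all measured probes, and 2 were lower, against 0.439%. The additional ones were a pair of Srsf10 probes that moved in opposite directions. With flagged spots kept, 4 of 40 member genes passed, against 1.07% of all genes, and these were Srsf6, Hnrnpdl and Srsf7 higher and Hnrnpc lower. Hnrnpul1 and Sfswap were then read from brighter probes with flagged spots and did not pass.

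Srsf6 had the highest mean among the members. Its probe A_52_P543824 had log2(FR/control) of 1.17 on array 1 and 0.89 on array 2, a mean of 1.03 or 2.04-fold. The FR pool had a log2 signal of 11.75, against 10.72 for its control RNA. In FD the same probe gave 0.59 and 0.43, and the signal was 10.94 in the FD pool and 10.43 in its control RNA. Both FD arrays lay on the same side of 0 as the FR arrays, and the second was under the 1.5-fold line of 0.585.

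The other Srsf6 probe went the opposite way. A_51_P185121 had log2(FR/control) of -0.99 on array 1, and -0.55 on array 2 where the spot was flagged. In FD it gave -0.56 on array 1 and a flagged -0.41 on array 2. All 4 values lay below 0, while all 4 of the upper probe lay above 0. With flagged spots kept, the probes differed by 2.16 and 1.44 in FR and by 1.15 and 0.84 in FD on the log2 scale, which corresponds to a mean of 3.48-fold in FR and 1.99-fold in FD.

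Srsf7, an SR protein with a zinc knuckle that shuttles between nucleus and cytoplasm, had the same kind of split at a short distance. A_51_P466673 had log2(FR/control) of -0.84 and a flagged -0.85. A_52_P649683, whose start lies 355 bases away, had a flagged 0.80 and 0.75. The neighbouring A_52_P649685, which overlaps it by 20 bases, had 0.87 and 0.44, both flagged. Both overlapping probes were above 0 on every array, and the separate probe was below 0 on every array.

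In FD the Srsf7 probes were closer to each other. A_51_P466673 had log2(FD/control) of -0.51 and -0.37 without flags, and A_52_P649683 had 0.03 and 0.25. Their difference of 0.54 and 0.63 put the pair just short of the 1.5-fold line on array 1. With flagged spots kept, the widest pair differed by 1.63 and 1.61 in FR and by 0.87 and 0.65 in FD.

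Srsf10, an SR protein known to repress splicing when it is dephosphorylated, showed the split without any flagged spot. A_52_P372843 had log2(FR/control) of 0.78 and 0.76, and A_51_P519592 had -0.73 and -0.66. Both passed 1.5-fold on both arrays, in opposite directions, and the mean difference of 1.46, or 2.75-fold, ranked 10 among 5403 genes with several measured probes. The probes in between gave intermediate values. A_52_P250968 had -0.43 and -0.38, and A_52_P478532, the brightest in FR, had -0.08 and 0.15.

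On the plus strand, the Srsf10 values in FR descended with position along the gene, the highest at the lowest coordinate. In FD the order of the probe means was the same, with 0.19 and 0.54 for A_52_P372843, -0.08 and -0.08 for A_52_P478532, -0.37 and -0.03 for A_52_P250968, and -0.32 and -0.49 for A_51_P519592. In signal, A_52_P372843 was at 9.53 in the FD pool and 9.16 in its control RNA, and at 9.79 in the FR pool and 9.02 in its control RNA. A_51_P519592 was at 8.02 in the FD pool and 8.43 in its control RNA, and at 7.83 in the FR pool and 8.52 in its control RNA.

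**Figure D1:**
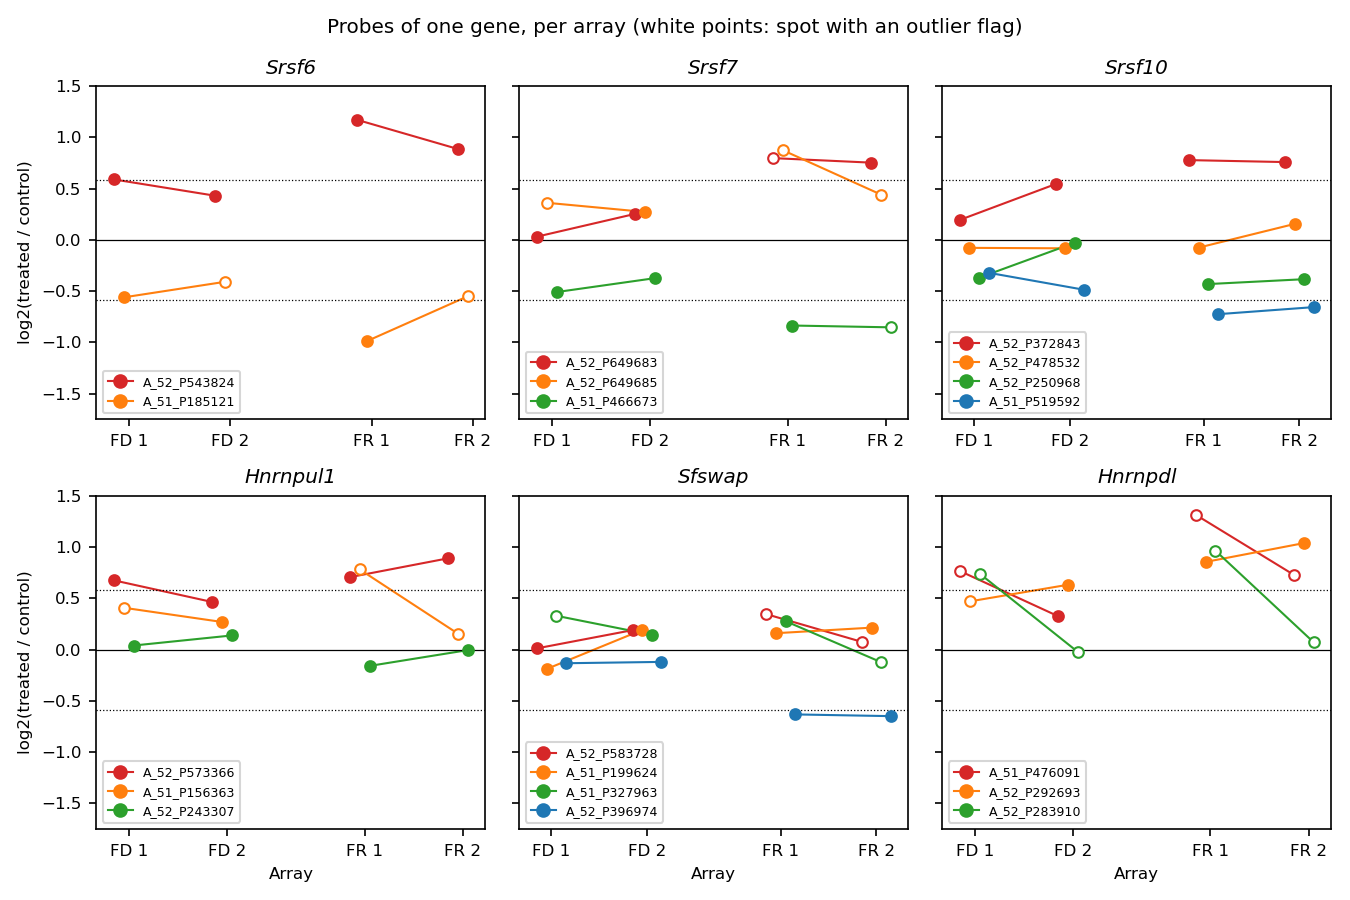
Each panel shows the probes of 1 gene that were well above background in FR, with log2(treated/control) on the vertical axis and the 2 arrays of FD and of FR on the horizontal axis. White points are spots with an outlier flag, lines join the arrays of a dye swap, and dotted lines mark 1.5-fold. Probes of Srsf6, Srsf7 and Srsf10 lie on both sides of 0 in FR, from -0.99 to 1.17.

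Hnrnpul1 differed between probes in size rather than in a clear opposite direction. A_52_P573366 had log2(FR/control) of 0.71 and 0.89, and log2(FD/control) of 0.68 and 0.46. A_52_P243307 had -0.16 and -0.00 in FR, and 0.04 and 0.14 in FD. The first probe lists one RefSeq transcript and the second lists another, and the first was above 0 on all 4 arrays. Another probe, A_51_P156363, had 0.78 and 0.16 in FR, both flagged. The last one, A_52_P394875, was not well above background.

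Sfswap was called lower in FR from A_52_P396974, which had -0.63 and -0.65. The FR pool had a signal of 9.04, against 9.68 for its control RNA. In FD the probe had -0.13 and -0.12. The 3 other Sfswap probes, all annotated with the RefSeq transcript, did not share this decrease, since A_51_P199624 had 0.16 and 0.21 in FR. A_52_P583728 had 0.35 and 0.08, both flagged, and A_51_P327963 had 0.28 and a flagged -0.12.

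Hnrnpdl was read from a single unflagged probe in FR. A_52_P292693 had 0.86 and 1.04, a mean of 1.93-fold, with a signal of 11.10 for the FR pool, against 10.15 for its control RNA. The other probes, flagged on both arrays, pointed the same way, A_51_P476091 with 1.32 and 0.73 and A_52_P283910 with 0.97 and 0.07. In FD, A_52_P292693 had a flagged 0.47 and an unflagged 0.63, and A_51_P476091 had a flagged 0.77 and an unflagged 0.33.

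**Figure D2:**
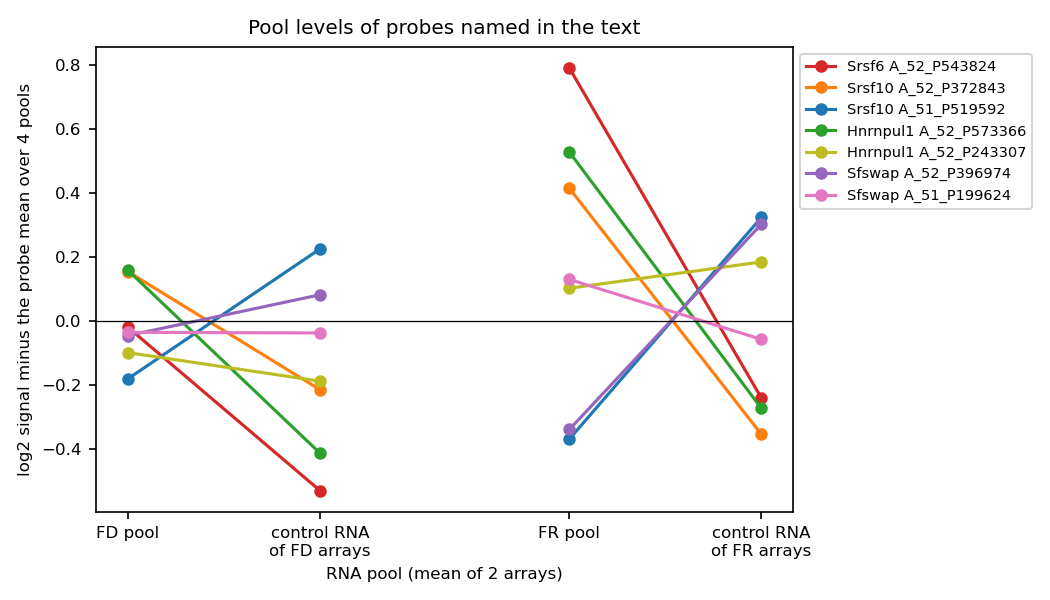
The vertical axis gives the log2 signal of a probe minus its mean over the 4 RNA pools, and the horizontal axis gives the FD pool, its control RNA, the FR pool and its control RNA, each the mean of 2 arrays. The 7 probes belong to Srsf6, Srsf10, Hnrnpul1 and Sfswap. The upper probes of Srsf6, Srsf10 and Hnrnpul1 slope down to the control RNA in both comparisons, and the lower probes of Srsf10 and Sfswap slope up to it.

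Agreement between probes was then counted for all genes. In FR, 3 of 17 member genes with several measured probes had extreme probes at least 1.5-fold apart on both arrays, which is 17.6%, against 2.55% of 5403 genes. All 3, Srsf10, Hnrnpul1 and Sfswap, had extreme means of opposite sign, a pattern found in 2.09% of all such genes. For Hnrnpul1 the lower mean was -0.08, within the technical SD of 0.11. In FD, 0 of 22 member genes reached that size on both arrays, against 0.376% of 5588 genes, or 0.251% with opposite signs. The widest range in FD was that of Srsf10, 0.77 or 1.71-fold. It was 0.52 on array 1 and 1.03 on array 2, so it missed the size on array 1 only. With flagged spots kept, Srsf6 and Srsf7 joined, so that 5 of 28 members disagreed in FR, against 2.89% of genes, and 2 of 28 in FD, against 0.445%.

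Member genes with several measured probes had 2.65 of them on average in FR, against 2.37 for all such genes, and the share that disagrees moves with the number of probes. Among all genes, the share that disagreed in FR was 1.65% with 2 probes, 3.24% with 3 and 9.06% with 4. Of the members, 2 of 10 genes with 2 probes, 0 of 3 with 3 probes and 1 of 4 with 4 probes disagreed. The median log2 intensity was 10.08 for member genes and 8.00 for all measured genes in FR. The part of intensity in the disagreement was not tested. The median range between extreme probes was 0.23 in FR for members and 0.14 for all genes, and 0.23 in FD for members and 0.11 for all genes.

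**Figure D3:**
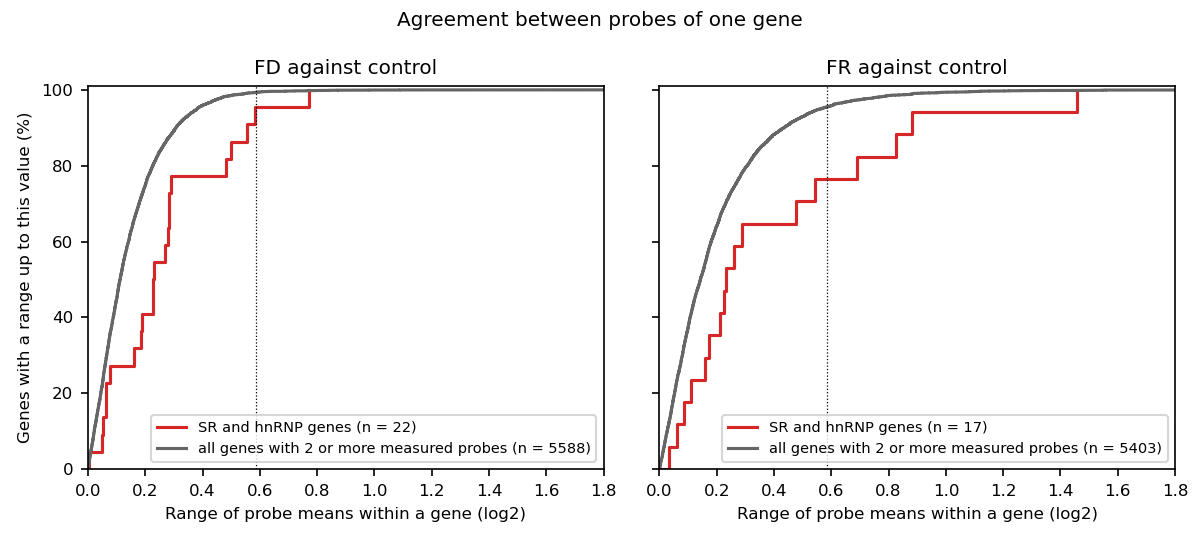
The horizontal axis gives the range of the probe means within a gene on the log2 scale, and the vertical axis the share of genes with a range up to that value. Red is the SR and hnRNP genes (22 in FD and 17 in FR), grey all genes with 2 or more measured probes, and the dotted line is 1.5-fold. The red curve lies to the right of the grey one over most of its length, with medians of 0.23 in both comparisons for members.

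Other members with wide probe ranges in FR were Hnrnpa1, Srek1, Hnrnpk, Akap17b and Scaf11, none 1.5-fold apart on both arrays. Hnrnpa1, a shuttling hnRNP that represses splice site use, ranged from -0.16 for A_51_P296940 to 0.53 for A_52_P232433. That range was 0.69 in FR, or 1.61-fold, with 0.57 on array 1 and 0.81 on array 2, so it missed the size on array 1 only. In FD it was 0.55. The lower probe was below 0 on all 4 arrays, with -0.18 and -0.15 in FR and -0.27 and -0.14 in FD, and the other 3 Hnrnpa1 probes were above 0 on all 4. Hnrnpa1 has close processed copies in the genome, so its signal may hold more than 1 gene.

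Srek1, a splicing regulator rich in glutamate and lysine, ranged over 0.54 in FR and 0.50 in FD, and A_52_P684857 was its lowest probe in both. Hnrnpk, which binds C-rich RNA through KH domains, ranged over 0.48 in FR and 0.28 in FD. Scaf11, a partner of Srsf2, ranged over 0.26 in FR and 0.29 in FD. Akap17b ranged over 0.29 in FR and 0.28 in FD. Hnrnpa3, a relative of Hnrnpa1, ranged over 0.28 in FD.

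Srsf2, a nuclear SR protein that marks splicing speckles, had probes close to each other. Its unflagged probes had log2(FR/control) of 0.58 and 0.32 for A_51_P262437, 0.59 and 0.47 for A_52_P8043, and 0.47 and 0.42 for A_52_P482355. All were above 0 with a range of 0.09 between their means, and none passed 1.5-fold on both arrays. The remaining probe, A_51_P262432, had 0.61 and a flagged 0.05. In FD the same probes had 0.29 and 0.15, 0.16 and 0.13, and 0.11 and 0.00.

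The remaining genes high in FR were read from 1 probe. Srsf5, an SR protein of constitutive and regulated splicing, had 0.18 and 0.86, so its mean of 0.52 rests mostly on array 2. Clasrp, a partner of the kinase Clk4, had 0.35 and 0.66. At the low end stood Hnrnpc, which packages nascent transcripts and binds uridine tracts, with -0.32 and -0.52 on A_52_P596080. Its brighter probe A_52_P218537 had -0.79 and a flagged -0.60.

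Srsf11, with -0.01 and -0.37, Sugp2, with -0.11 and -0.27, and Srek1ip1, with 0.02 and -0.32, followed in FR. Hnrnpa2b1, an hnRNP that carries RNAs in dendrites, had 0.26 on array 1 and -0.55 on array 2. Its sign differed between the dye orientations. Of the measured member probes, 23 of 59 in FR and 29 of 72 in FD changed sign between arrays, against 44.1% and 50.5% of all probes.

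**Figure D4:**
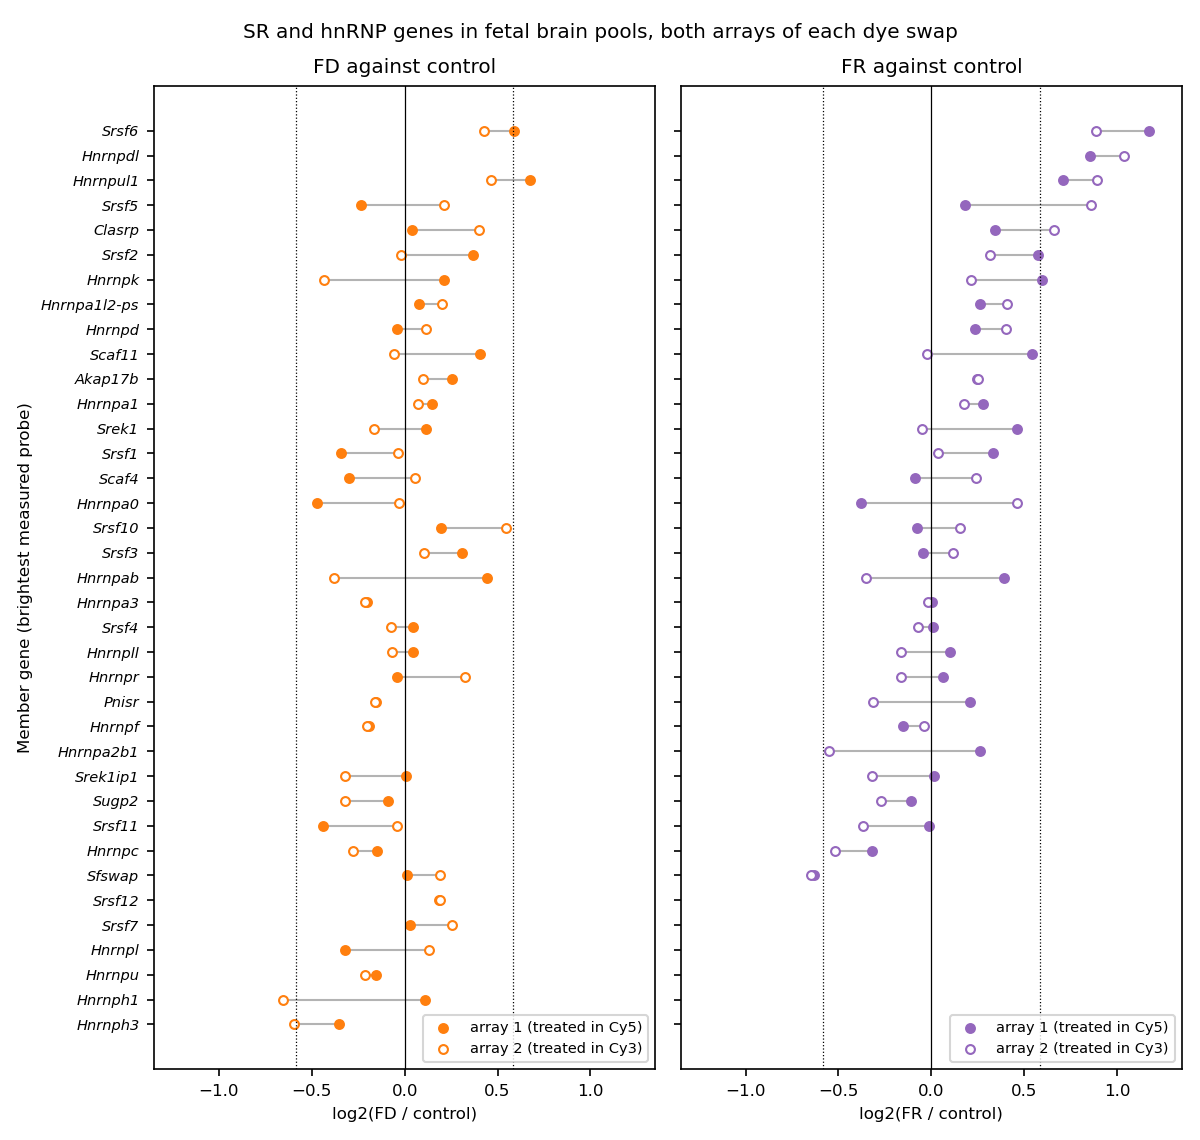
Rows are the member genes with a measured probe, sorted by their mean in FR, with log2(FD/control) in the left panel and log2(FR/control) in the right one, and a row with no points had no measured probe in that comparison. Filled points are array 1, open points array 2, and dotted lines mark 1.5-fold. Each gene is read from its brightest measured probe, which differed between the panels for 9 of 29 genes measured in both, Srsf10 and Sfswap among them. Srsf6, Hnrnpdl and Hnrnpul1 lie to the right of the line and Sfswap to the left in FR, and no gene is past it on both arrays in FD.

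In FD, 0 of 35 member genes passed 1.5-fold on both arrays, against 0.223% of 17970 measured genes. By probe, 0 of 72 were higher and 0 lower, against 0.0892% and 0.105% of all probes. The highest members were Hnrnpul1, with 0.68 and 0.46, and Srsf6, followed by Srsf10 read from A_52_P372843. Clasrp had 0.04 and 0.40, Srsf3 had 0.31 and 0.10, and Srsf12 had 0.18 and 0.19. Srsf3 is the smallest SR protein and acts in splicing and export, and Srsf12 is a relative of Srsf10.

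At the low end in FD, Hnrnph3 had -0.35 and -0.60, and Hnrnph1 had 0.11 and -0.65. Both proteins bind G-rich sequences. Hnrnpa0 had -0.47 and -0.03, Srsf11 had -0.44 and -0.04, Hnrnpc had -0.15 and -0.28, and Hnrnpa3 had -0.20 and -0.21. For Hnrnpc, the brighter probe A_52_P218537 had a flagged -0.75 and -0.68, so with flagged spots kept it was the only member past 1.5-fold in FD.

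By class, the median log2 ratio of SR proteins was 0.16 in FD over 10 genes and 0.11 in FR over 8 genes. Srsf7 and Srsf12 were measured in FD only, and Srsf10 was read from A_52_P372843 in FD and A_52_P478532 in FR. Class medians of FD and FR thus rest on partly different genes and probes and do not compare FD with FR directly. For SR-related genes it was -0.03 and 0.08 over 9 genes in each. The hnRNP A, B and D genes had medians of 0.03 in FD over 6 genes and 0.13 in FR over 8. The hnRNP C, K, L, M and R genes had -0.09 in FD over 5 genes and -0.04 in FR over 4. For hnRNP F and H genes the median was -0.27 in FD over 3 genes, all with means below 0, and the 1 gene measured in FR had -0.09. For hnRNP U genes it was 0.19 in FD over 2 genes, and Hnrnpul1, the 1 gene measured in FR, had 0.80. Over all members the median was -0.01 in FD and 0.04 in FR, beside 0.01 and 0.00 over all genes.

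Whether the FD and FR ratios share control RNA is not stated, so they are set side by side and not correlated. The control RNAs were not alike in skeletal muscle genes, with a mean log2 signal of 8.90 for FD and 7.81 for FR. The FD ratio minus the FR ratio was taken between arrays of equal dye orientation. It also holds any difference between the control RNAs, so it is not a contrast of the diets alone. The part of the control RNAs in it was not tested. No member gene passed 1.5-fold, with 0 of 29 against 0.352% of 16768 genes. By probe, 0 of 56 members were higher and 0 lower, against 0.0556% and 0.248%. Of the 29 genes, 18 were below 0 in both differences, against 29.6% of all genes, and 3 were above 0 in both, against 32.1%. The median difference was -0.12 for members and 0.00 for all genes. Negative medians were also found in lists of other splicing genes, described below. They were -0.11 for other SR-related proteins, -0.11 for the core spliceosome and -0.10 for neuronal and tissue splicing regulators. Decay and exon junction genes had -0.08, other hnRNP-type proteins -0.04, and SR protein kinase and import genes 0.02.

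The widest differences were those of the genes named above. Sfswap had 0.50 and 0.53 from A_52_P396974, higher in FD than in FR relative to control. Srsf5 had -0.41 and -0.65, and Srsf6 had -0.58 and -0.46 from A_52_P543824. Between probes, 0 of 17 members disagreed in the FD minus FR difference, against 0.636% of genes. With flagged spots kept, Srsf6 and Srsf7 disagreed, the mean difference of the widest pair being 0.80 for Srsf6 and 1.04 for Srsf7.

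Probe features that the rule did not use were set beside the values, and their part in them was not tested. Of the 93 probes, 74 list a RefSeq transcript and 19 do not. In FR, 4 of 45 measured probes with a RefSeq transcript and 2 of 14 without one passed 1.5-fold. Among all measured probes, 0.612% passed higher and 0.439% lower in FR, and these shares are not split by annotation. The 2 counts therefore do not show whether annotation goes with passing. The median log2 ratio in FR was 0.02 for measured probes with a RefSeq transcript and 0.15 for those without. In FD these medians were -0.09 and 0.09. The G+C content of measured probes in FR had a median of 38.3%, and that of the probes past 1.5-fold lay between 35.0% and 45.0%.

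Other splicing genes from lists of kinases, cofactors and spliceosome subunits were read with the members left out. For the counts of all lists below, the share of all measured genes that passed was 0.223% in FD and 1.02% in FR. None of 9 measured SR protein kinase and import genes passed in FD or in FR. The lowest was Srpk1, the kinase that phosphorylates SR proteins in the cytoplasm, with -0.63 and -0.42 in FR and -0.27 and -0.21 in FD. Clk2, a nuclear SR protein kinase, had -0.52 and -0.21 in FR and -0.22 and -0.20 in FD. In FD minus FR, Clk4 had -0.41 and -0.23 and Srpk1 had 0.36 and 0.21.

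Among other SR-related proteins, 0 of 21 measured genes passed in FD and 0 of 18 in FR. The cofactors Tra2a and Tra2b stood at opposite ends in FR, with a mean of -0.70 for Tra2a, nearer to 0 on array 2 with -0.39, and with 0.78 and 0.46 for Tra2b. In FD, Tra2a had -0.63 and -0.21, and Srrm3 had -0.49 and -0.29. In FD minus FR, Tra2b had -0.69 and -0.17 and Srrm4, a neuronal splicing factor, had -0.44 and -0.16.

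Among other hnRNP-type proteins, 1 of 24 measured genes passed in FR and 0 of 23 in FD. It was Ptbp2, the neuronal polypyrimidine tract binding protein, which was higher in FR with 1.05 and 0.68 and had 0.20 and 0.23 in FD. Its FD minus FR difference was -0.85 and -0.45, and that of Ewsr1 was -0.10 and -0.54. Syncrip, an hnRNP Q protein, had 0.66 and 0.43 in FR from its brightest measured probe. Its probes disagreed in FR, with extreme means of opposite sign. It was the only such gene among 13 of the list with several measured probes, beside 2.55% of all such genes that disagreed. In FD, Fubp1 had -0.28 and -0.43 and Msi2 had -0.58 and -0.06.

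The neuronal and tissue splicing regulators gave 0 of 25 in FD and 0 of 21 in FR. Rbm5 had -0.60 and -0.39 in FR, and Celf1 had 0.45 and 0.50 in FR, with a difference of FD minus FR of -0.36 and -0.67. In FD, Khdrbs3 had -0.45 and -0.33 and Celf6 had -0.57 and -0.14. Qk had -0.24 and -0.37 in FD minus FR.

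The core spliceosome gave 0 of 35 in FD and 0 of 32 in FR, and the median log2 ratio in FR was 0.06. In FR the largest were Snrpd3, an Sm ring subunit, with 0.29 and 0.58, and Sf3a1, a subunit of the branch point complex, with 0.26 and 0.58. In FD they were Prpf8, the central scaffold of the spliceosome, with -0.21 and -0.15, and Ddx23 with -0.25 and -0.10. In FD minus FR, Snrpd3 had -0.33 and -0.50 and Prpf8 had -0.32 and -0.43. The decay and exon junction genes gave 0 of 12 in each comparison. Rbm8a, a core exon junction protein, had -0.40 and -0.26 in FD and -0.44 and 0.03 in FR, and Smg6, an endonuclease of the decay pathway, had -0.24 and -0.24 in FD and -0.49 and -0.04 in FD minus FR. Eif4a3, an exon junction helicase, had 0.06 and 0.34 in FR, and the decay factor Upf2 had 0.32 and 0.12 in FD minus FR.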

How the data were processed

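The members and the gene lists were chosen with earlier results of these data known. RNA pools of fetal brain were read on 4 arrays of 1 slide. Per the file headers, the deposited scanner files hold the mean intensity and local background of each spot in both channels, and a log10 ratio of red over green made by Agilent Feature Extraction 9.5.3.1. The deposited value table matched that ratio as log2 of treated over control, to within 5.5e-06 on spots well above background. Its unit is not stated, and its column medians were -0.03, 0.03, -0.03 and 0.01.

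Intensities were background-corrected with normexp (offset 50) and loess-normalised within arrays in limma 3.58.1 under R 4.3.3. Left out were control spots, spots with an outlier flag and spots with a local background above 2 times that array's median (3 spots in FD, 44 in FR). Swapped arrays were turned so that all values are log2(treated/control). Channel signals were scaled between arrays with Aquantile. The brightest measured probe stood for a gene, and a gene or probe was called at 1.5-fold the same way on both arrays. Probes disagreed when the extreme probes of a gene differed by that size the same way on both arrays. The technical SD is 1.4826 times the median absolute deviation of the array difference divided by 2. The array number limits the precision.

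File names were linked to symbols of the RefSeq table (GRCm38.p6, names only): 29098 probes by symbol, 3397 by accession and 356 by synonym, and 8323 kept the file's name. The named genes are all called members, the 6 highest and 6 lowest members and the 8 widest probe ranges in each comparison, and members with no measured probe. For the other lists they are called genes and the 2 largest changes in each comparison. Coordinates are mm9. The calling was tested on simulated data. Alternatives were other background corrections, normalisations, filters, fold sizes and probe summaries, the deposited table, leaving out an array, and keeping flagged spots, which was chosen after seeing the data.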

Additional observations from a re-analysis of the deposited data

Results flagged for a closer look

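Among the member probes measured in both comparisons, Hnrnpul1 A_52_P243307 was the only one with both FD arrays on one side of 0 and both FR arrays on the other. It had 0.04 and 0.14 in FD and -0.16 and -0.00 in FR, and its FD minus FR difference was 0.17 on the log2 scale. Its means of 0.09 in FD and -0.08 in FR both lay within the technical SD of 0.11. The share of all probes with this pattern is not given. The difference was not tested.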

How the results depend on the processing

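No paired analysis was possible because each condition is 1 pool and the array number only marks the dye orientation. The 4 calls in FR remained a count of 4 without the filter on dim spots, at 1.3-fold, with the scanner ratio, with the deposited table and with flagged spots kept, although in the last of these Srsf7 and Hnrnpc passed and Hnrnpul1 and Sfswap did not. Keeping flagged spots was chosen after seeing the data. The count fell to 2 with the mean over probes, 0 at 2-fold and 0 with median centring. It was also 0 with normexp on all spots, where the 44 spots of high background compressed array 2 of FR to an interquartile range of 0.01 against 0.20. Median centring left a dye trend, with interquartile ranges of 1.08 to 1.34. The 0 calls in FD became 2 at 1.3-fold and 1 with flagged spots kept. Those of FD minus FR became 3 at 1.3-fold and 1 with the scanner ratio or the deposited table.

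The 3 disagreeing members in FR became 5 with the scanner ratio, the deposited table, 1.3-fold or flagged spots kept, 1 at 2-fold and 0 with normexp on all spots. The 0 in FD became 1 with the scanner ratio, the deposited table or median centring, 3 at 1.3-fold and 2 with flagged spots kept. The 0 in FD minus FR became 2 with the scanner ratio, the deposited table, 1.3-fold or flagged spots kept. With 1 array left out, calls ranged from 5 to 6 in FR, were 2 in FD, and ranged from 0 to 1 in FD minus FR. Disagreeing members then ranged from 4 to 7 in FR, were 4 in FD, and ranged from 1 to 2 in FD minus FR. Causes other than those given were not tested. Among the 4 called genes in FR, Sfswap changed sign with flagged spots kept. It was then read from A_51_P327963, with a mean of 0.08, against -0.64 from its called probe. Background shares moved with the counts, from 0.0754% to 3.72% of genes in FR. The share over all genes is not set beside each count in this section. These counts therefore do not show how members compare with other genes under a setting.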
